A study of Mus musculus with 6 samples.

Results

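The glucocorticoid receptor, its sister receptor and 6 of their target genes were followed in cortical RNA of microglia-depleted and control mice. These 8 genes, Nr3c1, Nr3c2, Fkbp5, Sgk1, Tsc22d3, Zbtb16, Pdk4 and Plin4, were taken by symbol from a table of 23366 genes, as a readout of adrenal steroid signaling in mice that become sick. All 8 were found and all 8 passed the filter for testing, an average of 0.5 FPKM or more over the 6 mice. FPKM is a read level scaled to the length of the transcript and the depth of the library, so that it can be set side by side between genes. The comparison asks whether the steroid response of the cortex differed between depleted and control mice.

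The data came from poly(A) RNA-seq of brain cortex, taken from frontal tissue, with 1 library per mouse on a C57BL/6 background. The 3 depleted mice, named A4, A5 and A6, carried 1 copy of CX3CR1-CreERT2 and 1 copy of iDTR and were taken 10 days after depletion. The 3 control mice, A1, A2 and A3, were littermates that carried CX3CR1-CreERT2 without iDTR. Tamoxifen was injected in both genotypes, which switches on Cre in cells that use the CX3CR1 promoter and so places the diphtheria toxin receptor on microglia of iDTR carriers only. Depletion followed from diphtheria toxin; the methods do not make clear whether control mice received it, and genotype, toxin and loss of microglia cannot be told apart here. By day 10 the brain had been repopulated, so these are not brains without microglia, and no age or time of day of collection was given for either group.

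Glucocorticoids cross into the brain and bind 2 nuclear receptors, the glucocorticoid receptor encoded by Nr3c1 and the mineralocorticoid receptor encoded by Nr3c2. Without hormone the receptor rests in the cytoplasm in a complex with heat shock protein 90 and immunophilins. With hormone it moves to the nucleus and binds paired copies of a short half-site, the glucocorticoid response element, near genes such as Fkbp5, Sgk1 and Tsc22d3. In the brain these targets are widely read as a record of recent stress hormone exposure, and much of that response takes place in glia and blood vessels.

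The response element is shown here because it is the sequence through which the receptors reach these genes. RefSeq promoter windows (GRCm38.p6, 250 bases before to 50 after a transcript start) covered 6 of the 8 genes with 13 windows. The palindrome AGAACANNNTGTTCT, which reads the same on both strands, was found in 3 of 32851 windows in the genome (0.00913%), and 1 of these 3 belonged to Sgk1. Its half-site, AGAACA or on the other strand TGTTCT, was found in 4 of the 13 windows of these genes, in Sgk1 and Tsc22d3 alone, against 19.0% of all windows. Half-sites inside a palindrome are counted among the half-sites. Of the 13 windows, 6 were of Sgk1 and 3 of Tsc22d3, so these genes had more windows to hold a match than the others. Capitals mark the half-sites in the windows below, and the window of Fkbp5 is given because that gene had the widest step between its highest mouse and the next, and it holds neither sequence.
Sgk1 (chr10:21993640-21993939, plus strand): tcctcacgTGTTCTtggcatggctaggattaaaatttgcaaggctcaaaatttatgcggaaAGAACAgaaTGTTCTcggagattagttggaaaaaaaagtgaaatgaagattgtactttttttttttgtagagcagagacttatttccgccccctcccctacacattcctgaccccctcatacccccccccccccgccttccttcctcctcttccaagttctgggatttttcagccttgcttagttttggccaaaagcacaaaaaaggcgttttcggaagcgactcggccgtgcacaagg
Tsc22d3 (chrX:140600473-140600772, minus strand): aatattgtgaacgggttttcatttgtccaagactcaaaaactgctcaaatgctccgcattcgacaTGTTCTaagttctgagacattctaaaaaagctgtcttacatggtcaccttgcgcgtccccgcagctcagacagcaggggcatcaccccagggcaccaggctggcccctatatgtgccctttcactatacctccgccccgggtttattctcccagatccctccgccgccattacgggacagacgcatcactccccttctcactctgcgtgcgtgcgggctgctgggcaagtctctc
Fkbp5 (chr17:28486100-28486399, minus strand): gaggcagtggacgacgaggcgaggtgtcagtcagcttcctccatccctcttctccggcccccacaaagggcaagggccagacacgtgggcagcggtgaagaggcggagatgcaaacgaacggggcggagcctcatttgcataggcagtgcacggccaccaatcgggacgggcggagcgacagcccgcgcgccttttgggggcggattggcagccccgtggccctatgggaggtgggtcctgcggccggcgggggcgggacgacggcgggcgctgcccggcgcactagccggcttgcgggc
In Sgk1 the palindrome read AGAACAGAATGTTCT and began at position -189 relative to the start of that transcript. No match in a window says only that these letters are not in it.

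By limma, 0 of the 8 genes passed an adjusted p of 0.1 and 0 of the 8 an unadjusted p of 0.05. Of the 14385 genes tested, 0.0278% passed the first threshold and 10.5% the second (4.79% higher and 5.74% lower). The first threshold was also passed by 0 of 12 interferon-stimulated genes (lowest limma adjusted p = 0.370). Their median log2 fold change was 1.78, and 11 of the 12 were above all controls in every depleted mouse. By DESeq on raw counts, which were not used here, the paper reported interferon genes such as Stat2 and Oas1a as upregulated. A gene that did not pass is thus not shown to be unchanged. The adjusted p-values of the 8 genes ran from 0.515 to 0.994 in limma. On average 5 genes were higher and 3 lower in depleted mice, with a median log2 fold change of 0.028 against -0.0085 over all genes tested. The groups did not overlap in 1 gene, Zbtb16, against 17.6% of all genes. Fold changes are on the scale of log2(FPKM + 1), which understates those of low genes. In the same test on simulated data, 30.5% of 200 genes changed by 0.5 on this scale and 85% of those changed by 1 were recovered among 14385 genes. The simulation gave both groups of a gene the same spread. In the data 75.8% of genes had a wider spread in depleted mice, so these shares do not hold for every gene. Differences of 1 or more could also be missed where 1 depleted mouse stood apart.

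**Figure D1:**
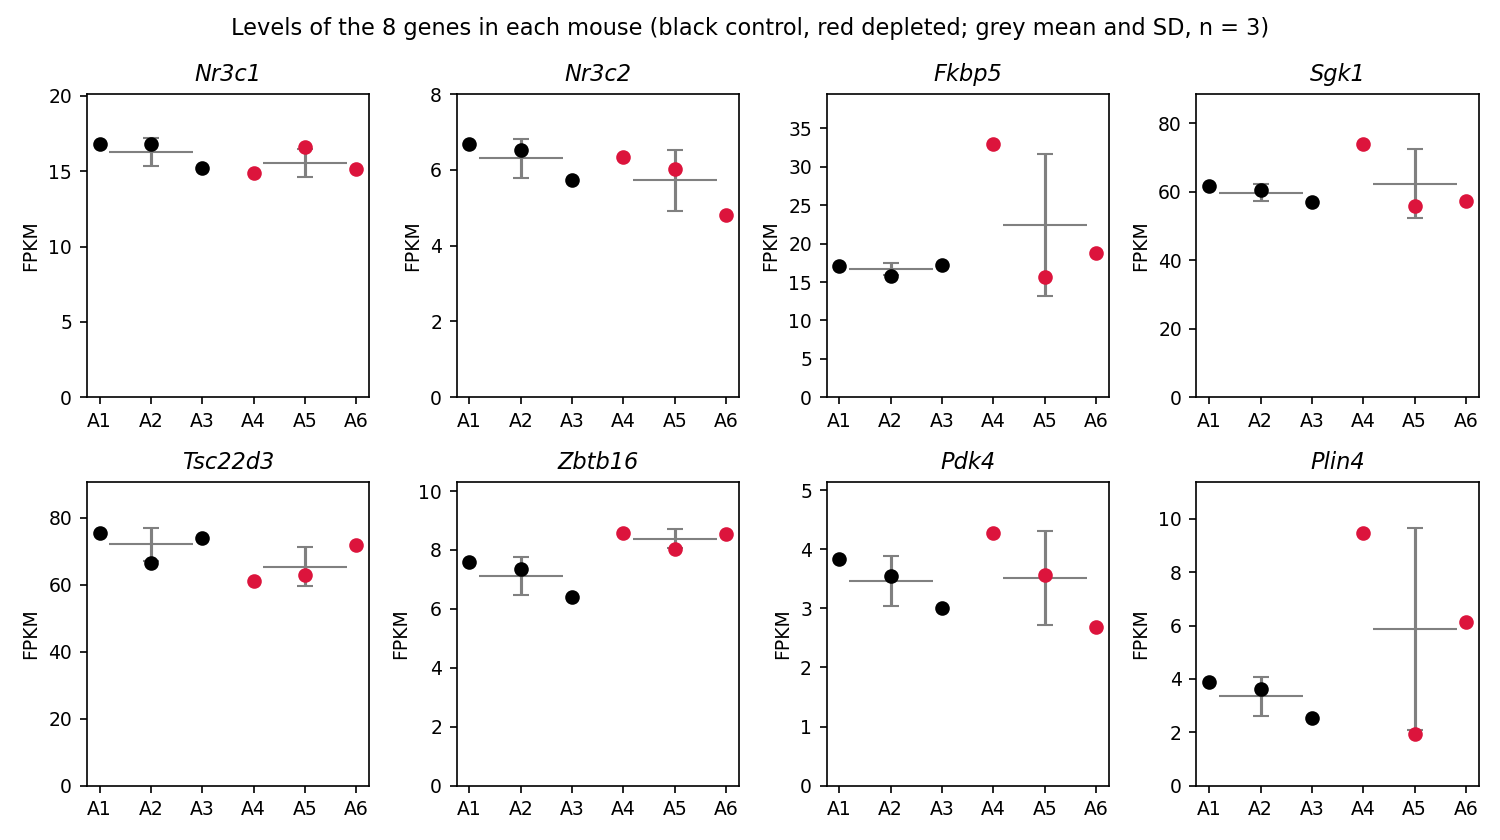
FPKM (vertical axes, from 0) of the 8 genes in each mouse, control mice in black and depleted mice in red, with the mean and SD of each group (n = 3) in grey. In Fkbp5, depleted mouse A4 stood at 32.96 FPKM and the other 5 mice between 15.61 and 18.74.

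Some libraries stood apart before these genes were considered. The FPKM of Y-linked genes summed to 5.56 in A4 and to at most 0.16 in the other mice. Xist was at 4.74 FPKM in A3 against 30.86 to 46.66 in the others. The mice had been described as matched for sex. Among all genes tested, A4 had the highest value of the 6 mice in 26.9%. Estimated from the spacing of low FPKM values, about 14500000 to 20600000 fragments lay behind each control library and 7140000 to 13700000 behind each depleted one, with A5 the shallowest and least certain, since 10700000 scored nearly as well. Microglia genes (8 of 8 tested, none at 0 throughout) summed to 97.2 to 118.6 FPKM in control and 98.9 to 124 FPKM in depleted mice. This sum held members that differed in opposite directions. In bulk tissue, fewer cells of a type and less RNA per cell cannot be told apart.

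Both receptor genes were slightly lower on average in depleted mice, by less than the test could tell from 0. Nr3c1 (chromosome 18) stood at 16.8, 16.8 and 15.23 FPKM across A1 to A3 and at 14.88, 16.62 and 15.16 FPKM across A4 to A6. The 2 groups overlapped, and the whole range of the 6 mice was 1.13-fold. In limma the log2 fold change was -0.062 ± 0.089 (SE), with a 95% interval from -0.26 to 0.14 and an adjusted p of 0.832.

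Nr3c2 (chromosome 8), the receptor with the higher affinity for corticosterone, was at 6.68, 6.53 and 5.72 FPKM in the control group and at 6.35, 6.01 and 4.81 FPKM across A4 to A6. Depleted mouse A6 was the lowest of the 6, and the other depleted mice lay inside the control range. Its log2 fold change in limma was -0.13 ± 0.13 (SE), with a 95% interval from -0.42 to 0.16 and an adjusted p of 0.746. The ratio of Nr3c1 to Nr3c2, both per length, averaged 2.58 with an SD of 0.0744 over the 3 controls and 2.75 with an SD of 0.404 over the 3 depleted mice. The mean log2 ratio differed by 0.082 (p = 0.6 in an exact permutation test, two-sided, whose smallest possible p is 0.1 here), and it was -0.021 with A6 left out.

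Fkbp5 (chromosome 17) encodes an immunophilin that binds the receptor complex and lowers its affinity for hormone, and its own induction closes a feedback loop. Its level was 17.03, 15.82 and 17.24 FPKM across A1 to A3, and 32.96, 15.61 and 18.74 FPKM across A4 to A6. Mouse A4 was at 1.97 times the control mean, A6 lay a little above the control mice and A5 a little below them. The control mean was 16.7 ± 0.766 FPKM and the depleted mean 22.4 ± 9.25 FPKM (SD, n = 3 each). Limma put the log2 fold change at 0.34 ± 0.23 (SE), with a 95% interval from -0.19 to 0.86 and an adjusted p of 0.626. The difference rested on A4: without it the log2 fold change was 0.034 (adjusted p = 0.915 in limma), and without A5 it was 0.55.

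Plin4 (chromosome 17), a lipid droplet coat protein that glucocorticoids induce in the brain, varied most of the 8. It stood at 3.89, 3.62 and 2.52 FPKM in the control group and at 9.48, 1.94 and 6.15 FPKM across A4 to A6. Mice A4 and A6 were above every control mouse and A5 was below every one, a range of 4.89-fold over the 6 mice. About 79.8 fragments lay behind the lowest value, that of A5, for a counting error near 11.2%. This estimate used the longest transcript and the depth of A5, which was the least certain. The log2 fold change of 0.49 had a standard error of 0.40 and a 95% interval from -0.43 to 1.41 (adjusted p = 0.688 in limma). Left without A4 it was 0.092 (limma, adjusted p = 0.937), and without A5 it was 1.01 (limma, adjusted p = 0.188).

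Sgk1 (chromosome 10) encodes a kinase that regulates ion channels and transporters and is abundant in oligodendrocytes. The 3 control mice had 61.55, 60.61 and 56.88 FPKM, and A4 to A6 had 73.87, 55.92 and 57.3 FPKM. Here again A4 was the highest, at 1.24 times the control mean, while A5 was the lowest of the 6 mice. The log2 fold change of 0.052 ± 0.11 (SE) had a 95% interval from -0.20 to 0.30 and an adjusted p of 0.895 in limma, and its sign turned without A4, to -0.074.

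Tsc22d3 (chromosome X), also named Gilz, encodes a leucine zipper protein that carries part of the anti-inflammatory action of glucocorticoids. Its FPKM was 75.54, 66.54 and 73.96 in the control mice and 61.23, 62.92 and 71.96 across A4 to A6. In contrast to Fkbp5 and Sgk1, it was lowest in A4, at 0.850 times the control mean, and A6 lay within the control range. By limma its log2 fold change was -0.14 ± 0.088 (SE), with a 95% interval from -0.34 to 0.062 and an adjusted p of 0.604, and it was -0.094 without A4.

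Zbtb16 (chromosome 9), a zinc finger transcription factor also known as PLZF, was the only one of the 8 genes whose groups did not overlap. The control mice had 7.6, 7.37 and 6.4 FPKM and the depleted mice 8.59, 8.02 and 8.54 FPKM, each of them above all controls. The step between the groups was small, from 7.6 in the highest control to 8.02 in the lowest depleted mouse, and 8.21% of the genes tested had their groups apart in this direction. Its log2 fold change was 0.21 ± 0.10 (SE), with a 95% interval from -0.026 to 0.45 and an adjusted p of 0.515 in limma. The unadjusted limma p was 0.0746, and 14.5% of all genes had a lower one. It was similar without A4, at 0.19.

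Pdk4 (chromosome 6) encodes a mitochondrial kinase that turns off pyruvate dehydrogenase and shifts fuel use to fatty acids. The controls had 3.84, 3.55 and 3 FPKM, and A4 to A6 had 4.28, 3.56 and 2.69 FPKM. Depleted mice held both the highest and the lowest value, and the group means were nearly equal, with a log2 fold change of 0.0041 ± 0.16 (SE), a 95% interval from -0.36 to 0.37 and an adjusted p of 0.994 in limma. Without A4 it was -0.12.

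**Figure D2:**
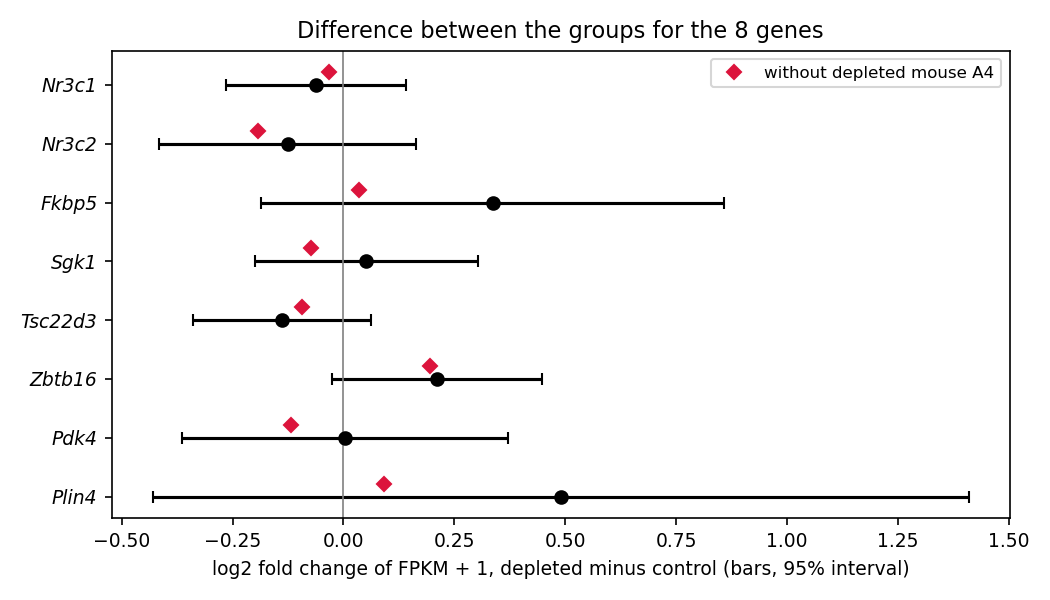
Log2 fold change of FPKM + 1, depleted minus control, for the 8 genes (black points) with 95% intervals from limma, and the same value with depleted mouse A4 left out (red diamonds). Every interval includes 0, and the value of Fkbp5 moves from 0.34 to 0.034 without A4.

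By FPKM in the control mice, which is per length, the order of levels was Tsc22d3 at 72.0, Sgk1 at 59.7, Fkbp5 at 16.7, Nr3c1 at 16.3, Zbtb16 at 7.12, Nr3c2 at 6.31, Pdk4 at 3.46 and Plin4 at 3.34 FPKM. The control mice overlapped between Fkbp5 and Nr3c1, between Zbtb16 and Nr3c2, and between Pdk4 and Plin4. Within single mice, Fkbp5 was above Nr3c1 in 4 of 6 and Pdk4 above Plin4 in 2 of 6, so the order of these pairs was not fixed. Zbtb16 was above Nr3c2 in each of the 6 mice although the ranges of the mice overlapped. Tsc22d3 was above Sgk1 in 5 of 6 mice, all but A4. On the log2 scale the spread between mice was wider in the depleted than in the control group for 7 of the 8 genes, all but Zbtb16, and for 75.8% of all genes tested.

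The mouse in which a gene was highest was the same for most of the target genes. Of the 8 genes, 5 had their highest value in A4, namely Fkbp5, Plin4, Sgk1, Zbtb16 and Pdk4, against 26.9% of all genes tested, while both receptors and Tsc22d3 were highest in A1, where Nr3c1 was level with A2. In 2 of them, Fkbp5 and Plin4, A4 was at least 1.5-fold above the next mouse, a step chosen after the values were seen, which 3.2% of all genes showed. The step of Fkbp5, 1.76-fold, was reached in A4 by 2.02% of all genes and that of Plin4, 1.54-fold, by 2.83%. The lead of A4 was small in Zbtb16, at 8.59 against 8.54 FPKM in A6. It was also small in Pdk4, at 4.28 against 3.84 FPKM in A1. A4 also had the highest interferon response: 12 interferon-stimulated genes summed to 442.1 FPKM in A4, 86.7 in A5 and 80.2 in A6, and to 31.0 to 43.0 FPKM in control mice. The part of the interferon response or of the Y-linked signal in the values of A4 was not tested.

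A list of 37 further genes that glucocorticoids are known to induce was read in the same mice, all of them tested. In limma 0 of the 37 passed either threshold, with 18 higher and 19 lower in depleted mice and a median log2 fold change of -0.011. The list ran from Cdkn1a, a brake on the cell cycle, at 0.71 ± 0.41 (SE, limma adjusted p = 0.570) to Angptl4, a lipoprotein lipase inhibitor, at -0.40 ± 0.25 (SE, limma adjusted p = 0.598). Yet 25 of the 37 (67.6%) had their highest value in A4, against 26.9% of all genes. Any lead was counted, also one as small as that of Ptgds, at 1613.28 FPKM in A4 against 1603.06 in A1. Relative to the control mean, the median of the 37 genes on the log2 scale reached 0.26 in A4 but -0.16 in A5 and -0.098 in A6. In the control mice it ran from -0.036 to 0.030. Above the control mean were 31, 9 and 11 of the 37 in A4, A5 and A6. These medians and counts were not computed over all genes, so they have no background here.

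In 6 of the 37 genes A4 was at least 1.5-fold above the next mouse, and these were singled out after their values were seen. The clock gene Per1, a direct target, was at 51.62 FPKM in A4 and between 20.92 and 30.77 FPKM in the other mice. Mt1, a metal-binding metallothionein, was at 734.28 FPKM in A4 and between 363.54 and 468.6 FPKM in the others. Sult1a1, a sulfotransferase, was at 18.56 FPKM in A4 and between 6.72 and 11.05 FPKM elsewhere. Nfkbia, the inhibitor of NF-kB, Cdkn1a and Lcn2 made up the rest, and all 3 also answer to inflammatory or damage signals. Cdkn1a was at 44.57 FPKM in A4 against 10.94 to 14.17, and Lcn2 at 3.21 FPKM against 0 to 0.7. By contrast Mertk, a phagocytic receptor also picked for its value, was lowest in A4, at 7.09 FPKM against 8.64 to 10.84 in the other mice.

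**Figure D3:**
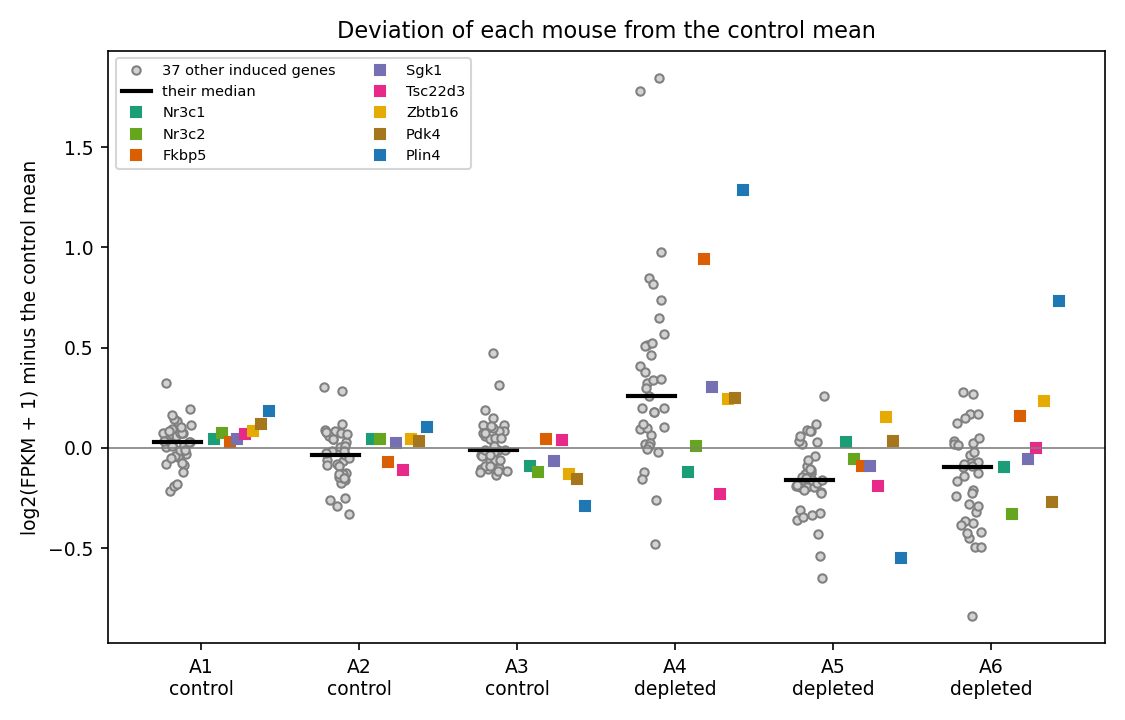
Deviation of each mouse from the control mean in log2(FPKM + 1), for the 37 other glucocorticoid-induced genes (grey circles, black bar for their median) and the 8 receptor and target genes (coloured squares). The medians of the 37 genes were 0.26 in A4, -0.16 in A5 and -0.098 in A6, and those of all genes were not computed.

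**Figure D4:**
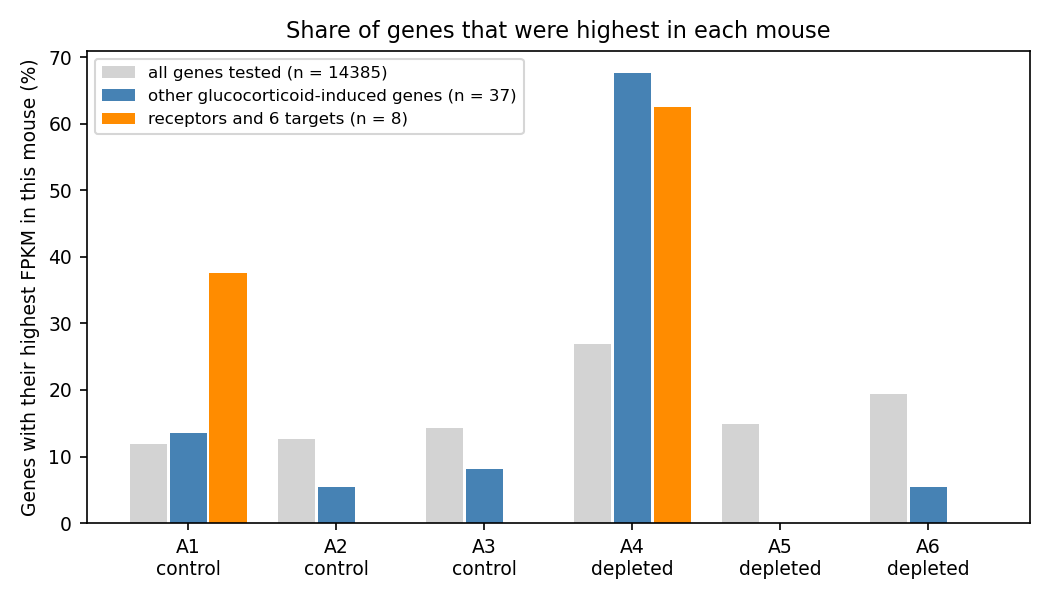
Percent of genes whose highest FPKM of the 6 mice was in the mouse named below the bars, for all 14385 genes tested, the 37 other glucocorticoid-induced genes, and the 8 receptor and target genes. In A4 the shares were 26.9%, 67.6% and 62.5%, with any lead counted, however small.

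Genes whose pattern over the 6 mice lay nearest to that of Fkbp5, by the root mean square difference of centred log2(FPKM + 1) profiles, were 1500012F01Rik at 0.045, Ncrna00085 at 0.062 and Glipr2 at 0.074, where the profile of Fkbp5 itself spread by 0.36. 1500012F01Rik was at 67.44 FPKM in A4 and between 32.52 and 40.78 FPKM in the other mice. Nearest to Zbtb16, the tested gene of the 8 with the lowest p-value, were Slc35a5 at 0.032, Med30 at 0.032 and Ralgps2 at 0.035, beside a spread of 0.13.

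Genes listed by textbook role as repressed by glucocorticoids were read next, and whether each is repressed in cortex was not tested. The list held 12, of which 8 passed the filter. None passed the threshold and 0 had an unadjusted p under 0.05 in limma, with 5 higher and 3 lower and a median of 0.22. The inflammatory genes Tnf, Il6, Il1b and Nos2 were under the filter, with Tnf listed at 0 in every mouse. Ccl2, a chemokine that draws monocytes, was at 4.02 FPKM in A4 and at no more than 0.17 FPKM in any other mouse. Pomc, the precursor of ACTH, was at 268.98 FPKM in control mouse A3 and between 0.82 and 9.42 FPKM in the others, and its log2 fold change was -1.16 ± 1.57 (SE). The activity-dependent genes Egr1 and Fos of this list, named after their values were seen, were at 302.62 and 40.68 FPKM in A4 and at no more than 86.97 and 13.3 FPKM in the other mice.

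The machinery around the receptors was read from lists of the same kind, and over all 6 pathway lists together 0 of 84 genes tested passed the threshold, with 2 higher and 3 lower at an unadjusted p under 0.05 in limma (5.95%, against 10.5% of all genes). The groups did not overlap in 9 of the 84 (10.7%), against 17.6% of all genes, and those named below are among these 9. Among 14 chaperones of the receptor complex the median log2 fold change was 0.021. Hsp90aa1 and Hsp90ab1, which encode the heat shock protein that holds the receptor ready for hormone, were the 2 with an unadjusted p under 0.05. Hsp90aa1 was at 515.63, 521.62 and 509.67 FPKM across A1 to A3 and at 580.66, 598.04 and 611.69 FPKM across A4 to A6, with no overlap of the groups. Its log2 fold change was 0.21 ± 0.060 (SE, limma adjusted p = 0.378). At the other end was Fkbp4, the immunophilin that Fkbp5 competes with, at -0.20 ± 0.093 (SE, limma adjusted p = 0.492).

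Of 11 coregulators, with a median of -0.011, Nrip1 was the highest at 0.13 and Carm1, an arginine methyltransferase, the lowest. Carm1 was at 23.03, 21.59 and 23.39 FPKM in the control group and at 18.09, 19.76 and 18.9 FPKM across A4 to A6, a difference of -0.25 ± 0.080 in log2 (SE, limma adjusted p = 0.388). All depleted mice lay below all controls, as in 9.38% of the genes tested. Of 11 genes of steroid access and metabolism, 8 were tested, with a median of -0.030.

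Hsd11b1, which regenerates active corticosterone inside cells, was at 11.8 FPKM on average in control and 11.7 FPKM in depleted mice, while Hsd11b2, which inactivates it, did not exceed 0.27 FPKM. Cyp11a1, the enzyme of the first step of steroid synthesis, was the lowest of this list, at 2.32, 2.31 and 2.93 FPKM in the control group and 1.34, 1.1 and 1.05 FPKM across A4 to A6. The groups lay apart, by -0.70 ± 0.14 in log2 (SE, limma adjusted p = 0.296). Tspo, a mitochondrial protein widely used as a marker of gliosis, was the highest of the list at 0.56 ± 0.27 (SE, limma adjusted p = 0.515), and stood at 9.51 FPKM in A4 and between 3.07 and 4.34 FPKM in the other mice.

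Of 12 genes of stress peptides and their receptors, 8 were tested, with a median of -0.26, between Pomc and Crhbp, a binding protein for corticotropin-releasing hormone, at 0.073. Crhr1, the main receptor of that hormone in cortex and named after its values were seen, was the 1 gene with an unadjusted p under 0.05, at 10.44, 10.55 and 11.86 FPKM in the control group and at 4.72, 8.28 and 8.79 FPKM across A4 to A6. Here too the groups lay apart, by -0.57 ± 0.20 in log2 (SE, limma adjusted p = 0.396). Crh itself was at 1.36 FPKM in A4 and between 3.38 and 4.02 FPKM in the other 5 mice.

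Cells that carry much of the steroid response were compared through marker lists of 8 genes each. Astrocyte markers summed to 1180 to 1321 FPKM in control and 1186 to 1295 FPKM in depleted mice, but this sum held members that differed in opposite directions. Gfap, the filament protein of reactive astrocytes, was at 88.28, 64.48 and 84.21 FPKM across A1 to A3 and at 300.31, 108.51 and 120.13 FPKM across A4 to A6, a difference of 1.00 ± 0.34 in log2 (SE, limma adjusted p = 0.396). The other way, Aldoc and Gja1 were lower in every depleted mouse than in any control, by -0.19 in log2 each, and 6 of the 8 astrocyte genes were lower on average. Neuronal markers summed to 2309 to 2637 and 2272 to 2507 FPKM. Oligodendrocyte markers were lower in depleted mice in 8 of 8 genes, at 2986 to 3253 FPKM in control and 2613 to 2703 FPKM in depleted mice. Endothelial markers summed to 44.1 to 50.2 and 52.5 to 55.4 FPKM, with 6 genes higher and 2 lower on average (median log2 fold change 0.12). Mural markers summed to 44.6 to 53.6 and 36.0 to 42.7 FPKM, with 3 genes higher and 5 lower (median -0.057). The mural sum was mostly Vtn, which averaged 30.6 FPKM in control and 23.5 FPKM in depleted mice. Markers of choroid plexus summed to 170.5 to 327.1 FPKM in control and 47.3 to 72.6 FPKM in depleted mice. The choroid plexus sum was mostly Ttr, which averaged 215.5 FPKM in control and 55.0 FPKM in depleted mice. All 8 genes of that list were lower on average (median log2 fold change -0.43). Markers of meningeal fibroblasts had a median log2 fold change of -0.21. Of the 8 striatal symbols, 7 were in the table, and they summed to 266.1 to 302.7 and 263.0 to 314.4 FPKM. No gene of these lists passed the threshold in limma. At an unadjusted p under 0.05, where 4.79% of all genes were higher and 5.74% lower, there were 4 oligodendrocyte and 5 choroid plexus genes, all lower, 1 astrocyte gene higher (Gfap) and 1 lower (Aldoc). The endothelial list had 1, Cldn5, higher, the mural list 1, Vtn, lower, and the meningeal list 1, Igf2, lower. Of the microglia genes reported, P2ry12 and Fcrls were lower, and the neuronal and striatal lists had 0. Other microglia genes did not go the same way: Tmem119 (0.16), Sall1 (0.11), Olfml3 (0.034) and Cx3cr1 (0.025) were higher on average in log2. Csf1r was lower (-0.081), and none of these had an unadjusted p under 0.05 in limma. Genes named from the marker lists beyond the ends of each list were chosen after their values were seen. The part of these differences in the values of the receptor and target genes was not tested.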

How the data were processed

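Cortical poly(A) RNA of 3 control and 3 depleted mice was sequenced as 75 bp paired-end reads. The authors used TopHat for alignment and RSEM for quantification of annotated transcripts, and deposited FPKM values scaled between libraries with TMM factors. The submitters' processing notes also name mm9 and DESeq; versions are not given in the sources used here. FPKM is no count, so DESeq was not repeated. The 14385 of 23366 genes that averaged 0.5 FPKM or more were compared as log2(FPKM + 1) with limma 3.58.1 in R 4.3.3 (lmFit, eBayes with trend, Benjamini-Hochberg over all genes tested, threshold 0.1, the level the study used), without covariates. Limma p-values set the difference of the group means against the spread between mice, 3 a group. That spread was drawn toward a trend over all genes. The members and lists were chosen with earlier results of these data known. Beside the 8 genes, named genes were those at either end of each pathway list and the 3 nearest in profile to Fkbp5 and Zbtb16; others are marked as chosen after their values were seen.

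Depth was estimated from low FPKM values, taken as whole multiples of 1 fragment, in 2064 genes with a single GENCODE M21 transcript of 300 to 1500 bases. The largest error was 0.261% on 3 libraries simulated with the same transcript lengths. That simulation could not test whether these lengths and the TMM scaling suit the deposited values. The estimated depth covers counting error only. Each fit was repeated with a pseudocount of 0.1, with all genes kept, with a filter at 1 FPKM, with TPM, median-of-ratios and quantile scaling, eBayes without trend or robust, and array weights, a threshold of 0.05, and leaving out each mouse in turn; a GC-content correction and leaving out A3 and A4 together were added after seeing the data. Promoters came from RefSeq (GRCm38.p6), a later build than mm9, and were matched by symbol. Python 3.11.15, numpy 2.4.6, pandas 2.3.3 and matplotlib 3.10.9 were used. The result of 1 marker gene is not reported here.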

Additional observations from a re-analysis of the deposited data

How the results depend on the processing

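None of the 8 genes and none of the 84 pathway genes had an adjusted p-value under 0.1 under any alternative, and the lowest adjusted p of the 8 was that of Plin4 without A5, at 0.188 in limma. The unadjusted limma p fell under 0.05 for Plin4 (0.0018) and Fkbp5 (0.031) without A5. It did so for Tsc22d3 without A6 (0.044) and for Zbtb16 with the GC-content correction (0.039), for each gene in 1 of 17 alternatives. The number of all genes called moved from 4 to 2 with eBayes without trend and to 20 with array weights, and ran from 2 to 29 with 1 mouse left out, the lowest without A1, the highest without A5, and 8 without A6. The sign of the log2 fold change turned in 3 genes whose values lie near 0 or rest on A4. Sgk1 was at -0.020 with array weights, from -0.074 to 0.12 with 1 mouse left out, and at -0.11 without A3 and A4. Pdk4 was at -0.059 with array weights, from -0.12 to 0.14 with 1 mouse left out, turning without A3 (-0.073), A4 (-0.12) or A5 (-0.012), and at -0.19 without A3 and A4. Plin4 was at -0.052 without A3 and A4. The log2 difference of the receptor ratio ran from -0.021 to 0.19 with 1 mouse left out, the lowest without A6. Nr3c1, Nr3c2, Fkbp5, Tsc22d3 and Zbtb16 kept their sign under each alternative. No paired analysis was possible because the labels do not give the litter of a mouse or any other pairing of the groups. With 3 mice a group, and A5 at about 7140000 fragments, differences inside the printed intervals cannot be told from 0.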
